A study of Mus musculus with 16 samples.

Results

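Extracellular matrix genes other than Fn1 were followed in mouse Hepa1-6 hepatoma cells and in 3 clones of these cells that lack exon 5 of Eef1d. The list holds 42 genes, chosen by name with earlier results of these data known. It covers collagens, fibrillins, laminins, nidogens and heparan sulfate proteoglycans, matricellular proteins, small proteoglycans, matrix proteases with their inhibitors, and collagen-processing enzymes. Each gene was read at the transcript with the largest summed count. Of the 42, 33 had 10 or more RNA-seq counts in at least 2 libraries, as did 11801 of the 22392 genes in the table. The groups were WT (parental) Hepa1-6 cells and 3 clones without exon 5, named KO1, KO2 and KO3, with 2 RNA-seq and 2 Ribo-seq libraries a line, 16 in all. All 3 clones carry a homozygous in-frame deletion of Eef1d exon 5 made with Cas9. Each grew from 1 cell, KO1 and KO2 with the same pair of guides and KO3 with a pair that shared 1 guide with it, so that a clone stands for 1 editing event in 1 founder cell. RNA-seq was made from the same lysate as Ribo-seq. All clones were compared with the same WT libraries.

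Matrix proteins are made on ribosomes at the endoplasmic reticulum, folded and modified there, and secreted. Collagens and laminins assemble as trimers. Type IV collagen, laminins, nidogens and perlecan form the basement membrane, fibrillar collagens and fibrillins the interstitial network, and matrix metalloproteinases (MMPs), held in check by TIMP proteins, cut both. In liver, stellate cells and fibroblasts make most of the interstitial collagen, while hepatocytes and hepatoma cells secrete some matrix proteins themselves. Eef1d encodes a subunit of the EEF1B complex, which reactivates the elongation factor EEF1A. The study asked whether the loss of exon 5, which encodes a segment that binds a membrane protein of the endoplasmic reticulum, alters translation in these cells.

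Each RNA-seq library held 10493030 to 12946819 counts over 1 transcript per gene, and each Ribo-seq library 1138943 to 4886753. The smallest and the largest Ribo-seq libraries were both of KO1. The exon 5 deletion could be followed in the counts of Eef1d isoforms: counts on the transcript with exon 5, as a percent of those on the transcript without it, were 116.0 to 116.2 in WT RNA-seq and 89.8 to 92.6 in the 6 KO libraries. In Ribo-seq they were 113 to 114 in WT and 96.0 to 98.9 in KO. The clones kept counts on the transcript with exon 5 although their deletion is homozygous. These percents therefore do not measure how much of the Eef1d RNA carries exon 5. Of 12 hepatocyte markers, Alb, Afp, Apob, Apoe, Trf, Fgb and Hnf4a were measured in all lines, while Ttr, Apoa1, Serpina1a and Ahsg were at or near 0. The summed hepatocyte markers were 4293 to 4416 RNA CPM (counts scaled to 1000000 a library) in WT, 1077 to 1081 in KO1, 3871 to 3937 in KO2 and 5714 to 6289 in KO3. Of 8 tested markers, 7 were lower and none higher in KO1, 4 lower and 1 higher in KO2, and 4 lower (Apob, Trf, Fgb and Hnf4a) and 4 higher (Alb, Afp, Apoe and Apoa2) in KO3; their part in the changes of matrix genes was not tested. Of the markers of other cell types, Thy1, Lrat, Tek and Adgre1 were at 0 in all 16 libraries. Others were measured: in WT RNA, Pdgfra had 7.92 and 8.34 CPM, S100a4 8.10 and 6.04, Cd68 6.37 and 5.36, and Des 2.73 and 2.72. The 8 fibroblast or stellate markers summed to 16.7 to 34.8 RNA CPM and to 262 to 335 footprint CPM. Acta2 alone had 242 to 292 footprint CPM. The 4 endothelial markers summed to 0.0793 to 2.27 RNA CPM and the 4 leukocyte markers to 2.78 to 6.64. In bulk samples, fewer cells of a type and less RNA per cell cannot be told apart.

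In WT cells the members spanned over 4 orders of magnitude per coding length. Dcn, which encodes the small proteoglycan decorin, stood highest with 2739 and 2589 RNA CPM per 1000 codons, above 98.2% of the genes tested. Timp2, Spp1 and Sparc followed with means of 1166, 1075 and 725. The replicates of Timp2 were 1107 and 1225 and both of Spp1 were 1075, just below the lower value of Timp2, so that the order of Timp2 and Spp1 rests on a small difference. Thbs1 had a mean of 298, Timp1 of 205, and Mmp14, Agrn, Nid1, Lamc1, Hspg2, Lama5, Col18a1, Timp3 and Col4a1 lay between 181 and 95. The 10 lowest members, from Bgn at 1.45 to Lama1 at 0.116, included Col1a1 and Col3a1, which encode the chains of the main interstitial collagens. WT translation efficiency (TE), taken as the log2 ratio of footprint CPM to RNA CPM, could be given for 22 members with a median of 0.34, against -0.15 over 9634 genes. Among these members it was highest for Mmp3 (2.16), Dcn (1.25), Spp1 (1.17), Sparc (1.02), Timp3 (0.99) and Timp1 (0.94). The value of Mmp3 rests on 37 and 40 RNA counts, and 15.2% of its coding windows of 28 bases occur letter for letter in the related gene Mmp10. The part of this shared sequence in the WT value was not tested. Only Agrn (-0.77), Lama5 (-0.68), Hspg2 (-0.48) and Timp2 (-0.30) lay below the median of all genes.

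**Figure D1:**
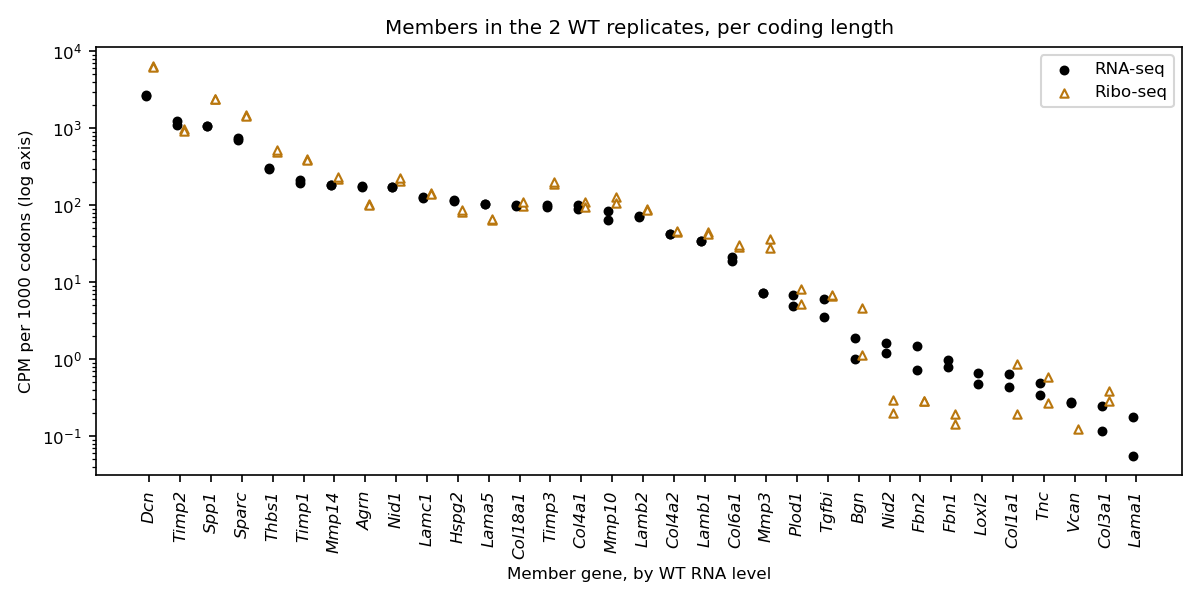
Levels of the 33 kept members in the 2 WT replicates, as CPM per 1000 codons on a log axis, in the order of their mean RNA level, with filled circles for RNA-seq and open triangles for Ribo-seq (footprint counts of 0 are not drawn). RNA means fell from 2664 for Dcn to 0.116 for Lama1, and the triangles of Dcn, Spp1 and Sparc lie above their circles while those of Agrn, Hspg2 and Lama5 lie below.

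Matrix genes changed in each clone, and mostly not in the same direction. In KO1, the RNA of 23 of 30 members tested changed, 13 higher and 10 lower (edgeR's quasi-likelihood test, Benjamini-Hochberg adjusted p under 0.05 over all genes tested). Over all genes, 46.7% changed in KO1 RNA, 22.1% higher and 24.6% lower. In KO2, 15 of 28 members changed, 7 higher and 8 lower, against 20.4% of all genes, 11.6% higher and 8.84% lower. In KO3, 23 of 30 changed, 17 higher and 6 lower, against 45.4% of all genes, 23.1% higher and 22.3% lower. On the log2 scale the members' median RNA change was 0.11 (KO1), -0.04 (KO2) and 0.46 (KO3), against medians over all genes within 0.003 of 0. Their median absolute change was 0.80, 0.32 and 0.68, against 0.26, 0.16 and 0.24 over all genes. The median of the mean RNA count was 398 for the kept members and 357 for all kept genes. As the members were chosen with earlier results known, these shares and medians describe the list and do not test matrix genes as a set. With 2 replicates a line and WT libraries shared by all comparisons, p-values measure the spread between these libraries and say nothing of the spread between clones of 1 genotype.

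**Figure D2:**
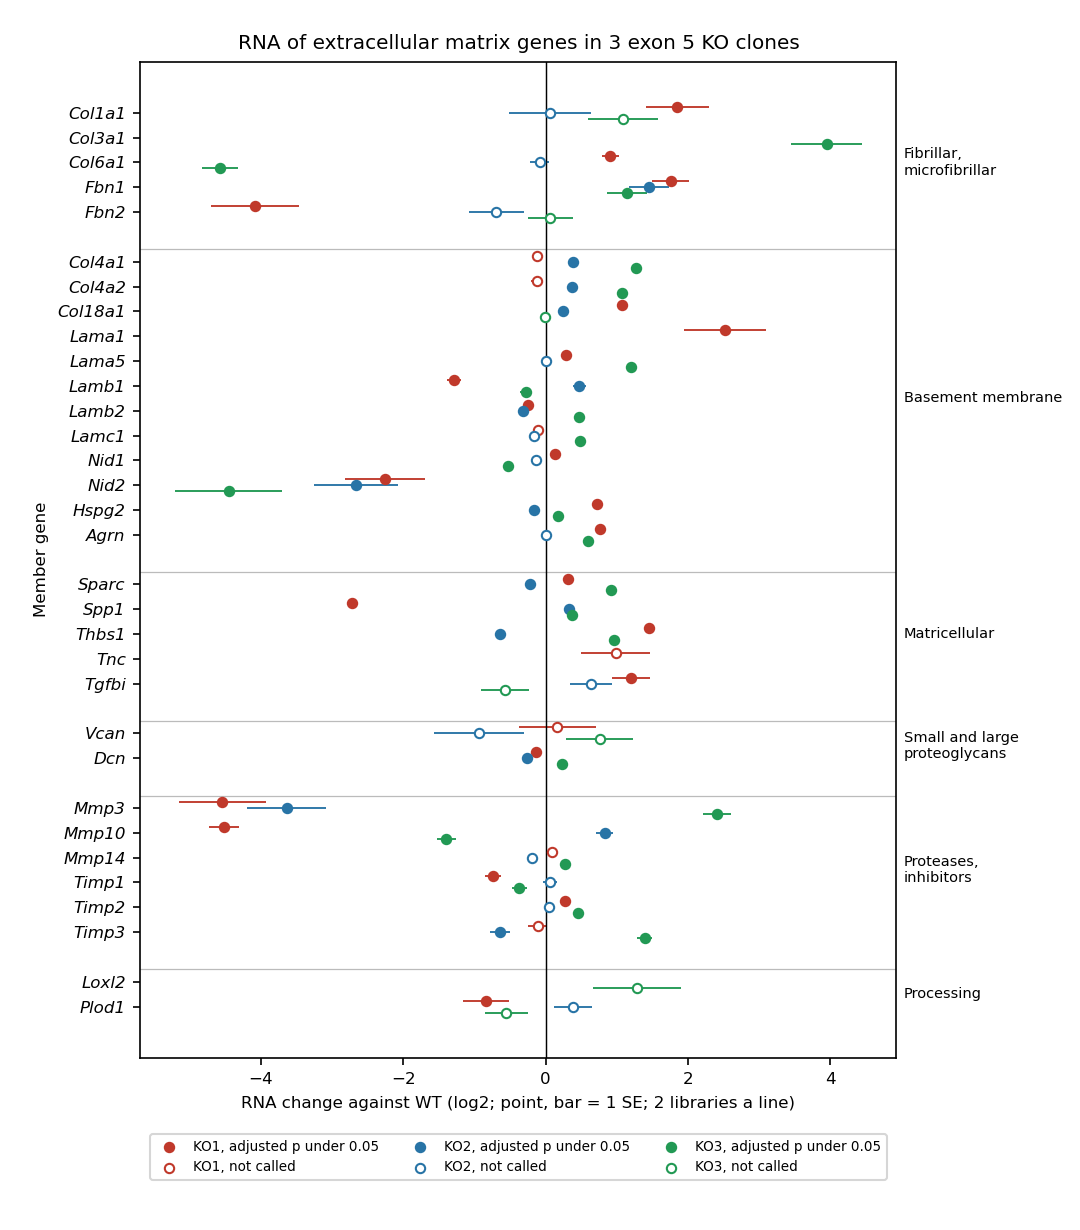
RNA change against WT (log2, x axis) of each member tested, by role, for KO1 (red), KO2 (blue) and KO3 (green). Points are estimates from 2 libraries a line, bars 1 SE, and filled points have an adjusted p under 0.05. Fbn1 lies right of 0 and Nid2 left of 0 in all clones, while Mmp3 ranges from -4.54 to 2.41 and Spp1 from -2.72 to 0.37.

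Only 1 member rose in RNA in all 3 clones, Fbn1, and 1 fell in all 3, Nid2; over all genes these shares were 0.807% and 0.886%. Fbn1 encodes fibrillin-1, the core of microfibrils. Its RNA was 2.27 and 2.81 CPM in WT, 9.19 and 8.07 in KO1, 8.33 and 5.78 in KO2, while KO3 had 6.35 and 4.92. All 6 KO libraries lay above both WT libraries. On the log2 scale KO1 rose by 1.76 (SE 0.26), KO2 by 1.46 (SE 0.28) and KO3 by 1.14 (SE 0.28), with adjusted p = 8.96e-08, 5.09e-04 and 4.85e-04. Fbn1 counts were low, 25 and 33 in WT and 60 to 106 in the clones, and its footprints, at most 9 counts a library, were too few to test. Nid2, which encodes nidogen-2, a linker of laminin and type IV collagen, had 25 and 20 RNA counts in WT, 6 and 3 in KO1, 2 and 5 in KO2, while KO3 had 1 and 1. All 6 KO libraries lay below WT. Nid2 was kept only through its WT libraries, with at most 6 counts elsewhere, and a gene kept in this way had to be lower in the clones. Col3a1 and Lama1 were likewise kept through 1 line only, and these 3 genes are among the counts of members called. A further 9 members were called in all 3 clones with directions that were not the same, which held for 6.23% of all genes. They were Dcn, Hspg2, Lamb1, Lamb2, Mmp3, Mmp10, Sparc, Spp1 and Thbs1.

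Of the 9 genes of fibrils, microfibrils and their associated collagens, 5 were kept. Col6a1, which encodes a chain of the beaded filaments of type VI collagen, had 19.3 and 21.4 RNA CPM in WT, 42.4 and 33.9 in KO1, 18.0 and 20.3 in KO2, while KO3 had 0.952 and 0.737. KO1 lay above WT, KO2 overlapped it and KO3 was far below. The change was 0.91 (SE 0.12, adjusted p = 4.23e-09) in KO1 and -4.57 (SE 0.25, adjusted p = 1.02e-28) in KO3, the latter a 23.8-fold decrease, and -0.08 (SE 0.13, adjusted p = 0.726) in KO2. Footprints were 29.1 and 30.6 CPM in WT, 49.7 and 46.2 in KO1, 29.4 and 29.9 in KO2, while KO3 had 2.71 and 1.25. The order of the lines was that of the RNA, although the footprint call in KO1 (0.70, SE 0.15) was lost without KO1 replicate 1 (adjusted p = 0.0594) and with DESeq2 (0.0834). Its partner Col6a2, 85161 bases away on chromosome 10, did not pass the filter, with at most 6 RNA counts in a library. Col3a1, a fibril-forming collagen of soft tissue, had 4 and 2 RNA counts in WT, 0 and 2 in KO1, 1 and 0 in KO2, while KO3 had 55 and 50. Its 31 and 13 footprints in KO3 also stood above the 2 and 1 in WT. Col3a1 was kept only through its KO3 libraries, so its level is given as counts alone. The 8 fibroblast or stellate markers summed to 30.2 to 34.8 RNA CPM in KO3 against 17.3 to 19.4 in WT, but of 3 tested only S100a4 was higher (31.2 and 25.6 CPM against 8.10 and 6.04). Pdgfra was lower in KO3 (1.35 and 1.80 CPM against 7.92 and 8.34), Des was not called, and Thy1 and Lrat were at 0. The part of these markers in the Col3a1 level was not tested. Col1a1, the main chain of type I collagen, had 7 and 11 RNA counts in WT and 38 and 26 in KO1, a change of 1.85 (SE 0.44, adjusted p = 4.71e-04). It was not called in KO2 (0.06, adjusted p = 0.958) or KO3 (1.09, adjusted p = 0.0594), and its partner Col1a2 had at most 1 RNA count. Fbn2, a second fibrillin, had 48 and 25 RNA counts in WT, 3 and 1 in KO1, 16 and 30 in KO2, while KO3 had 52 and 32. It fell in KO1 only among the tests of single clones, with a ratio of 0.0561 (exact 95% interval 0.0149 to 0.150), and the clones differed (adjusted p = 1.43e-06). Col5a1 and Col5a2 had at most 3 and 4 RNA counts.

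All 12 basement membrane genes were kept. In RNA, KO1 had 6 higher and 3 lower among 12 tested, KO2 had 4 and 3 among 11, and KO3 had 7 and 3 among 11. Over all genes the shares higher and lower were 22.1% and 24.6% (KO1), 11.6% and 8.84% (KO2), and 23.1% and 22.3% (KO3). The type IV collagen chains COL4A1 and COL4A2, which wind into 1 trimer, are encoded head to head on chromosome 8 with start sites so close that their promoter windows overlap. The windows (RefSeq, GRCm38.p6, 250 bases before to 50 after each gene's start) are given because both genes moved together; capitals mark the 78 bases of chr8:11312777-11312854 that both windows hold, as reverse complements of each other. Col4a1 is on the minus strand (chr8:11312777-11313076) and Col4a2 on the plus strand (chr8:11312555-11312854).
Col4a1: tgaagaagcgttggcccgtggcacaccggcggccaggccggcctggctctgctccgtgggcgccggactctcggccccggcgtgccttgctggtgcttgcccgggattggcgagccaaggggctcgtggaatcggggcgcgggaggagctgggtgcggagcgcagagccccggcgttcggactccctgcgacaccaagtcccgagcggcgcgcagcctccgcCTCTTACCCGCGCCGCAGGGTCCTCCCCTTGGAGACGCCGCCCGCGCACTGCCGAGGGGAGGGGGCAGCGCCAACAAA
Col4a2: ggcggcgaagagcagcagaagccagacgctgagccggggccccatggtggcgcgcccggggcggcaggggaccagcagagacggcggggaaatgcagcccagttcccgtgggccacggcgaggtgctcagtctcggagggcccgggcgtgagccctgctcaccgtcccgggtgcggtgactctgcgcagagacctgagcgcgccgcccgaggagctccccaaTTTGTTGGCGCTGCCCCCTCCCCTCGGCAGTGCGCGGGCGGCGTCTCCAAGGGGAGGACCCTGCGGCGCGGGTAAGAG
Both windows hold CCAAT and GGGCGG, letters that 37.4% and 35.7% of 32851 promoter windows hold on either strand. The part of the shared bases or of these letters in the levels of either gene was not tested. Col4a1 RNA was 167 and 149 CPM in WT, 157 and 133 in KO1, 213 and 201 in KO2, while KO3 had 393 and 371. KO1 overlapped WT, KO2 lay above it and KO3 well above. Col4a2 followed the same order with 71.7 and 70.8 CPM in WT, 72.1 and 58.9 in KO1, 93.4 and 91.2 in KO2, while KO3 had 147 and 152. In KO3 the chains rose by 1.28 (SE 0.06, adjusted p = 1.53e-34) and 1.07 (SE 0.07, adjusted p = 7.72e-24), in KO2 by 0.39 (SE 0.07) and 0.38 (SE 0.08), and in KO1 both changed by -0.12 (SE 0.07 and 0.08, adjusted p = 0.153 and 0.240). Without KO1 replicate 1 the KO1 decrease was called for both chains, at -0.24 and -0.28 (adjusted p = 0.00706 and 0.0188), and without WT replicate 2 for Col4a1 (adjusted p = 0.0444). Footprints rose in KO3 by 1.14 (SE 0.07) and 1.02 (SE 0.09). In KO2 they rose by 0.43 (SE 0.09) and 0.42 (SE 0.10), calls that were lost with DESeq2 (adjusted p = 0.430 and 0.223) and without KO2 replicate 1 (0.143 and 0.213), and for Col4a2 also without WT replicate 1 (0.0569) and after thinning to the smallest library (0.261).

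The laminins moved apart by chain. Lama5, the alpha chain of the adult laminin-511, had 386 and 380 RNA CPM in WT, 464 and 468 in KO1, 382 and 383 in KO2, while KO3 had 844 and 917. KO3 was the highest, KO1 lay a little above WT and KO2 overlapped it. The changes were 0.28 (SE 0.05, adjusted p = 1.33e-06), 0.00 (SE 0.05, adjusted p = 0.988) and 1.20 (SE 0.05, adjusted p = 3.06e-38). Lamb1, a beta chain that partners with it, went another way, with 62.1 and 63.0 CPM in WT, 26.3 and 25.2 in KO1, 95.6 and 78.5 in KO2, while KO3 had 51.2 and 52.1. KO2 lay above WT, and KO1 and KO3 below. The RNA changes were -1.28 (SE 0.10), 0.48 (SE 0.09) and -0.28 (SE 0.09), and those of footprints -1.02 (SE 0.12), 0.55 (SE 0.10) and -0.42 (SE 0.11). The KO3 call in RNA was lost without WT replicate 2 (adjusted p = 0.0536), and that in footprints with DESeq2 (0.0995). Lamb2, the beta chain of neuromuscular and kidney laminins, had 127 and 129 CPM in WT, 115 and 102 in KO1, 98.3 and 107 in KO2, while KO3 had 171 and 182. It was lower in KO1 and KO2 and higher in KO3, by -0.24 (SE 0.07), -0.32 (SE 0.07) and 0.46 (SE 0.06), and the KO1 call was lost without KO1 replicate 2 (adjusted p = 0.0881). Lamb2 footprints changed by -0.24 (SE 0.09), -0.52 (SE 0.08) and 0.49 (SE 0.08), with a KO1 call (adjusted p = 0.0361) that was lost when any 1 of the 4 libraries was left out (0.0879 to 0.314), with DESeq2 (0.406), after thinning to the smallest library (0.295), with no filter on low counts (0.0673) and over all transcripts (0.0659). Lamc1, the common gamma chain, rose in KO3 (0.49, SE 0.06, adjusted p = 7.67e-12) and was not called in KO1 (-0.11, adjusted p = 0.123) or KO2 (-0.17, adjusted p = 0.0574). The KO2 decrease was called with all lines in 1 fit (0.0450), with 10 counts in every library (0.0499) and without KO2 replicate 1 (0.0167). Lama1, an alpha chain of the early embryo, had 6 and 2 RNA counts in WT, 20 and 26 in KO1, 8 and 7 in KO2, while KO3 had 1 and 0. It was kept only through its KO1 libraries, with at most 8 counts elsewhere, so its level is given as counts alone.

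The heparan sulfate proteoglycans of the basement membrane were highest in KO1. Hspg2, which encodes perlecan, had 518 and 503 RNA CPM in WT, 884 and 800 in KO1, 443 and 472 in KO2, while KO3 had 581 and 576. KO1 and KO3 lay above WT and KO2 below. KO1 changed by 0.72 (SE 0.05, adjusted p = 1.39e-19), KO2 by -0.16 (SE 0.05, adjusted p = 0.0345) and KO3 by 0.18 (SE 0.05, adjusted p = 0.0012). The KO2 call was lost with DESeq2 (0.110) and without WT replicate 1, WT replicate 2 or KO2 replicate 1 (0.317, 0.143 and 0.0920), and the KO3 call without WT replicate 2 (0.0593). Agrn, which encodes agrin, an organiser of the neuromuscular synapse, had 359 and 348 CPM in WT, 629 and 568 in KO1, 344 and 366 in KO2, while KO3 had 526 and 543. KO2 overlapped WT (0.01, adjusted p = 0.947), while KO1 rose by 0.76 (SE 0.05, adjusted p = 1.98e-19) and KO3 by 0.60 (SE 0.05, adjusted p = 2.58e-18). Agrn footprints rose by 0.86 (SE 0.08) and 0.56 (SE 0.07) in the same clones. Col18a1, whose product carries heparan sulfate and yields endostatin, had 131 and 127 CPM in WT, 286 and 259 in KO1, 150 and 155 in KO2, while KO3 had 132 and 125. It rose 2.11-fold in KO1 (1.08, SE 0.06, adjusted p = 3.58e-22) and did not differ in the test in KO3 (-0.01, SE 0.07, adjusted p = 0.937). The KO2 increase (0.24, SE 0.06) was lost without WT replicate 1 (adjusted p = 0.0551) or WT replicate 2 (0.131). Nid1, the main nidogen, had 211 and 213 CPM in WT, 235 and 232 in KO1, 196 and 192 in KO2, while KO3 had 143 and 152. It fell in KO3 (-0.52, SE 0.06, adjusted p = 7.12e-12), and its call in KO1 (0.14, SE 0.05, adjusted p = 0.0370) was lost with DESeq2 (0.107), with all lines in 1 fit (0.0631) and when any of the 4 libraries was left out (0.0565 to 0.207). Nid1 footprints fell by 0.66 in KO3 (SE 0.07) and rose by 0.27 in KO1 (SE 0.08), the latter call being lost with DESeq2 (adjusted p = 0.142), after thinning (0.0834), and without WT replicate 1 (0.183) or KO1 replicate 1 (0.250).

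**Figure D3:**
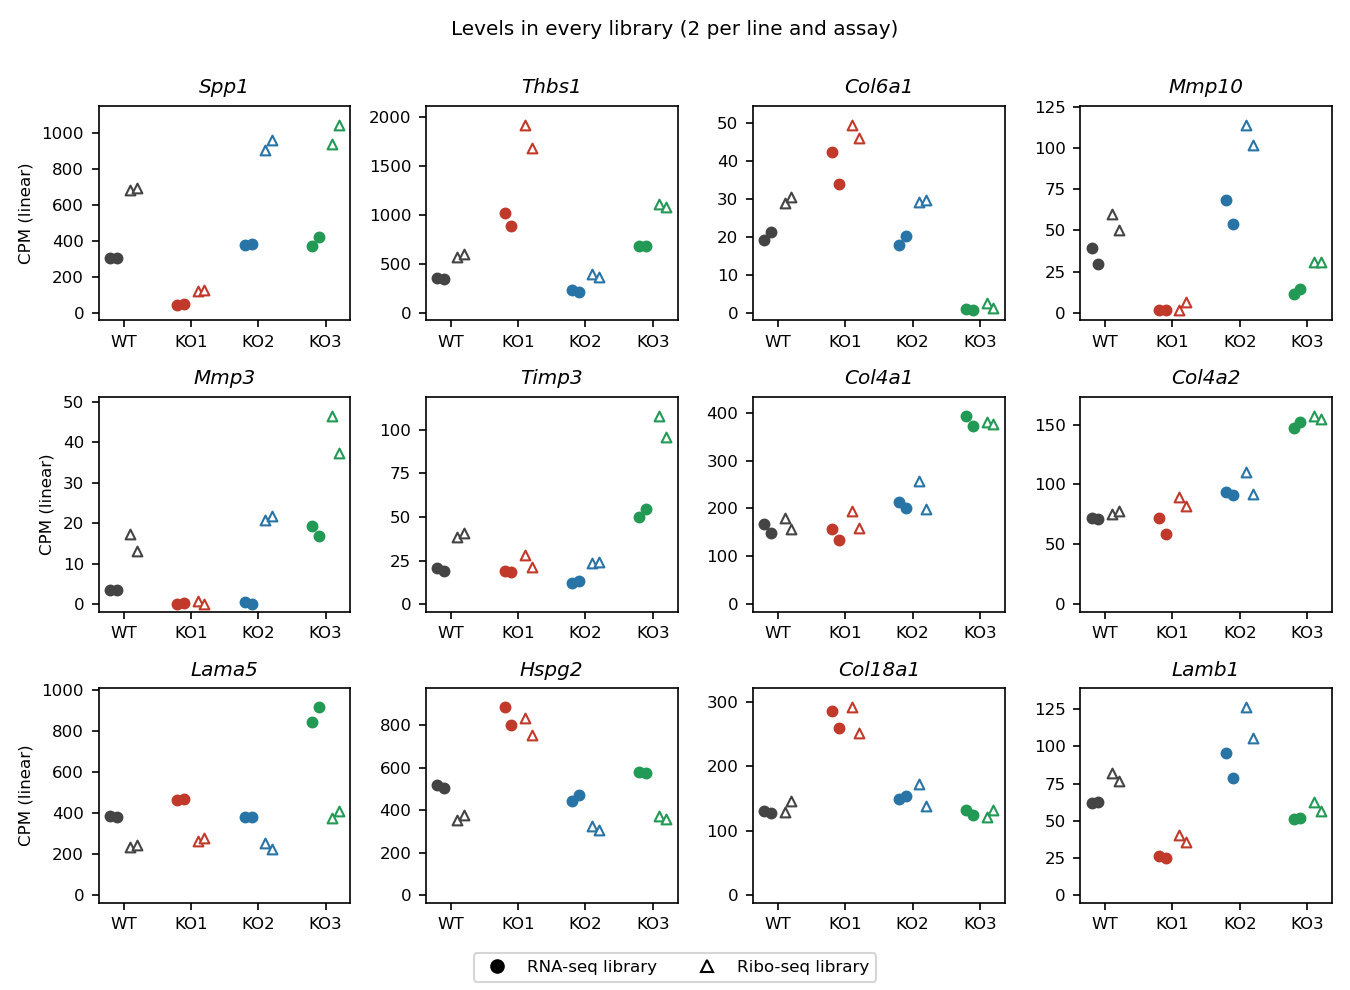
CPM on a linear axis in every library for 12 members, with filled circles for RNA-seq and open triangles for Ribo-seq, and 2 libraries for each line and assay. Spp1 is lowest in KO1 and Col6a1 in KO3 in both assays, and Mmp3 in KO2 has triangles near 21 CPM with circles below 0.5.

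Matricellular proteins, which bind matrix and receptors rather than build fibrils, gave some of the largest differences between clones. Spp1, which encodes osteopontin, had 306 RNA CPM in both WT libraries, 45.1 and 48.2 in KO1, 379 and 386 in KO2, while KO3 had 372 and 422. KO1 was far below WT and the other clones were above it. The KO1 decrease was 6.57-fold (-2.72, SE 0.07, adjusted p = 3.59e-38), and the increase was 0.32 (SE 0.05) in KO2 and 0.37 (SE 0.05) in KO3. Its footprints were 683 and 694 CPM in WT, 123 and 130 in KO1, 904 and 962 in KO2, while KO3 had 943 and 1048. They followed the RNA, with changes of -2.47 (SE 0.08), 0.44 (SE 0.06) and 0.52 (SE 0.06). Thbs1, which encodes thrombospondin-1, an activator of latent TGF-beta, had 353 and 340 RNA CPM in WT, 1017 and 888 in KO1, 232 and 214 in KO2, while KO3 had 677 and 679. KO1 and KO3 were above WT and KO2 below, and no line overlapped another. The changes were 1.46 (SE 0.05, adjusted p = 1.41e-31), -0.63 (SE 0.06, adjusted p = 2.94e-08) and 0.97 (SE 0.05, adjusted p = 2.14e-31). Thbs1 footprints were 569 and 604 CPM in WT, 1917 and 1681 in KO1, 393 and 363 in KO2, while KO3 had 1112 and 1078. The order was that of the RNA, with changes of 1.62 (SE 0.07), -0.63 (SE 0.07) and 0.89 (SE 0.06). Sparc, a collagen-binding glycoprotein of basement membranes and bone, had 238 and 230 RNA CPM in WT, 304 and 277 in KO1, 202 and 199 in KO2, while KO3 had 446 and 438. Its signs were those of Thbs1, with changes of 0.31 (SE 0.05), -0.22 (SE 0.06) and 0.92 (SE 0.05). The KO2 call for Sparc was lost without WT replicate 1 (adjusted p = 0.136). Sparc footprints changed by 0.39 (SE 0.07), -0.22 (SE 0.07) and 0.85 (SE 0.06), with a KO1 call lost without KO1 replicate 1 (adjusted p = 0.0728) and a KO2 call lost with DESeq2 (0.254), after thinning (0.586) and without WT replicate 1 (0.255) or KO2 replicate 2 (0.249). Tgfbi, an integrin-binding protein induced by TGF-beta, had 26 and 48 RNA counts in WT and rose in KO1 with 102 and 64 (1.20, SE 0.27, adjusted p = 1.83e-04), also in footprints (1.93, SE 0.29, adjusted p = 4.08e-07), and was called in neither KO2 nor KO3. Tnc, an adhesion-modulating glycoprotein, had 8 and 12 counts in WT and at most 24 in any library, and was not called in KO1 (0.99, SE 0.48, adjusted p = 0.0893). In KO3, with 2 and 2 counts, Tnc did not pass the filter of the main fit. It was called lower there with all lines in 1 fit (adjusted p = 0.0170) and with no filter on low counts (0.0401).

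Among the 4 proteoglycan genes, Dcn carried nearly all counts. Its RNA was 945 and 893 CPM in WT, 806 and 865 in KO1, 829 and 708 in KO2, while KO3 had 1100 and 1065. KO1 and KO2 were below WT and KO3 above, by -0.14 (SE 0.04, adjusted p = 0.00648), -0.26 (SE 0.06, adjusted p = 0.0027) and 0.23 (SE 0.04, adjusted p = 4.38e-06). The KO1 call was lost with DESeq2 (0.0585) and without WT replicate 1 (0.226) or KO1 replicate 1 (0.111). Dcn footprints were 2189 and 2181 CPM in WT, 2375 and 2400 in KO1, 1904 and 1798 in KO2, while KO3 had 2567 and 2711. In KO1 they lay above WT where the RNA lay below, without a call (0.12, SE 0.06, adjusted p = 0.179). They rose in KO3 (0.26, SE 0.06) and fell in KO2 (-0.24, SE 0.06), a call that was lost without WT replicate 1, WT replicate 2 or KO2 replicate 2 (adjusted p = 0.0918, 0.0700 and 0.0658). Vcan, the large proteoglycan versican, had 3 to 20 RNA counts a library and was called in no single clone. Bgn, the small proteoglycan biglycan, had 4 and 8 RNA counts in WT, 0 and 0 in KO1, 16 and 9 in KO2, while KO3 had 15 and 10. Among the main RNA fits it passed the filter only in that of all lines, where the clones differed (adjusted p = 2.49e-04). With all lines in 1 fit it was also called lower in KO1 than in WT (adjusted p = 0.00773). Lum had at most 1 RNA count.

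Among the 7 proteases and inhibitors, 6 were kept. Mmp3 and Mmp10 encode stromelysin-1 and stromelysin-2, close relatives on chromosome 9, 46376 bases apart and on the same strand. Their promoter windows (RefSeq, GRCm38.p6) are given for these neighbours, which both fell to near 0 in KO1 but changed with opposite signs in KO2 and KO3. Capitals mark TGAGTCA, the letters of the AP-1 motif, and TATAAA, the letters of the TATA box. The part of these letters in the levels of either gene was not tested. They lie at chr9:7445572-7445871 for Mmp3 and chr9:7502092-7502391 for Mmp10, both on the plus strand.
Mmp3: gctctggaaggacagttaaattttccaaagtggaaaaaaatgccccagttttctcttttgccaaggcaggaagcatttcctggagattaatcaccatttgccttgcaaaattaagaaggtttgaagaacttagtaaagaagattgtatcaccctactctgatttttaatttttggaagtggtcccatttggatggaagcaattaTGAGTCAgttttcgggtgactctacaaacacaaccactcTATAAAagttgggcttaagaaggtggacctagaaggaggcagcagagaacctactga
Mmp10: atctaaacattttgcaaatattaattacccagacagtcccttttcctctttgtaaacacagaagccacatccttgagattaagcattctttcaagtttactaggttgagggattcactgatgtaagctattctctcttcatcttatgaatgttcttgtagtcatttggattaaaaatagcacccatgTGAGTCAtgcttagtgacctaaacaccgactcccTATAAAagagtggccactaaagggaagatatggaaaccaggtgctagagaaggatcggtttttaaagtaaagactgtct
TGAGTCA starts 46 bases before the start of Mmp3 and 63 before that of Mmp10, and TATAAA 7 and 29 bases before; the motifs do not overlap. Searched on both strands, TGAGTCA is held by 5.20% of the 32851 promoter windows, TATAAA by 13.6% and both by 0.941%. Of the 29 members with a promoter entry, 3 held TGAGTCA (Col6a1, Mmp3 and Mmp10) and 6 held TATAAA. Mmp10 RNA was 39.1 and 29.6 CPM in WT, 1.47 and 1.5 in KO1, 68.4 and 53.7 in KO2, while KO3 had 11.7 and 14.5. KO1 and KO3 were below WT and KO2 above. The changes were -4.52 (SE 0.21, adjusted p = 2.48e-25), 0.83 (SE 0.12, adjusted p = 2.51e-05) and -1.39 (SE 0.13, adjusted p = 2.41e-15), and those of footprints -4.31 (SE 0.26), 0.95 (SE 0.11) and -0.86 (SE 0.13). Mmp3 had 37 and 40 RNA counts in WT, 1 and 2 in KO1, 5 and 1 in KO2, while KO3 had 244 and 205. It was near 0 in KO1 and KO2, and in KO3 it was above WT, where Mmp10 was below. The ratio to WT was 0.0399 in KO1 (exact 95% interval 0.00806 to 0.121) and 0.0771 in KO2 (0.0274 to 0.176), and the change in KO3 was 2.41 (SE 0.20, adjusted p = 1.22e-18). Mmp3 footprints were 62 and 32 counts in WT, 4 and 0 in KO1, 83 and 65 in KO2, while KO3 had 189 and 119. Both KO2 libraries lay above WT in footprints (20.8 and 21.8 CPM against 17.4 and 13.2, a change of 0.44 with adjusted p = 0.154), where the RNA was near 0.

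Timp3, an inhibitor that stays bound to matrix, had 20.7 and 19.2 RNA CPM in WT, 18.8 and 18.1 in KO1, 12.3 and 13.2 in KO2, while KO3 had 49.8 and 54.7. KO3 stood well above the other lines and KO2 was the lowest. RNA rose 2.62-fold in KO3 (1.39, SE 0.11, adjusted p = 2.09e-20), fell by 0.64 in KO2 (SE 0.14, adjusted p = 0.00231) and changed by -0.11 in KO1 (SE 0.13, adjusted p = 0.539). Timp3 footprints were 38.4 and 40.5 CPM in WT, 28 and 21.4 in KO1, 23.3 and 24.2 in KO2, while KO3 had 108 and 95.9. They also fell in KO1 (-0.58, SE 0.16, adjusted p = 0.00474) and in KO2 (-0.73, SE 0.15, adjusted p = 0.00134), calls that were lost with DESeq2 (0.208 and 0.0820). Timp1, a secreted inhibitor of most MMPs, had 41.9 and 38.6 RNA CPM in WT, 25.4 and 22.8 in KO1, 42.1 and 41.6 in KO2, while KO3 had 31.3 and 31.2. It was lower in KO1 (-0.74, SE 0.11) and KO3 (-0.37, SE 0.10) and overlapped WT in KO2, and the KO3 call was lost without WT replicate 1 (adjusted p = 0.0571). Timp1 footprints fell by 0.68 (SE 0.12) in KO1 and 0.70 (SE 0.11) in KO3. Timp2, which also serves in the activation of pro-MMP2, had 234 and 258 RNA CPM in WT, 296 and 299 in KO1, 241 and 266 in KO2, while KO3 had 332 and 341. It rose in KO1 (0.27, SE 0.05) and KO3 (0.45, SE 0.05), and KO2 overlapped WT (0.05, SE 0.06, adjusted p = 0.687). Timp2 footprints rose in KO3 (0.51, SE 0.07, adjusted p = 1.65e-07) and not in KO1 (0.08, SE 0.08, adjusted p = 0.508). Mmp14, the membrane-bound protease that activates pro-MMP2, rose in KO3 RNA (0.28, SE 0.07, adjusted p = 5.63e-04). It fell in KO2 footprints (-0.29, SE 0.09, adjusted p = 0.0305), a call lost with DESeq2 (0.387), after thinning (0.781) and without WT replicate 1 (0.0631), WT replicate 2 (0.167) or KO2 replicate 2 (0.189). Mmp2 itself had at most 12 RNA counts.

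Of the 5 genes for collagen processing, 2 were kept. Plod1, a lysyl hydroxylase, had 54 and 41 RNA counts in WT, 29 and 23 in KO1, 67 and 58 in KO2, while KO3 had 41 and 30. Its decrease in KO1 (-0.84, SE 0.32, adjusted p = 0.0269) was lost with DESeq2 (0.157) and without WT replicate 1 (0.313), KO1 replicate 1 (0.0592) or KO1 replicate 2 (0.126). Loxl2, an enzyme that cross-links collagen and elastin, had at most 15 RNA counts and was called in no single clone. Lox, Plod2 and Serpinh1 had 0 RNA counts in all 8 libraries, where the limit that a count of 0 allows was 0.238 to 0.282 CPM (3 counts a library).

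Ribosome footprints changed in the direction of the RNA for most members: the signs were opposite for 3 of 23 tested in both assays in KO1 (Col4a1, Col4a2 and Dcn), 2 of 23 in KO2 (Agrn and Mmp3) and 1 of 24 in KO3 (Hspg2). An RNA call came without a footprint call for 4 members (KO1), 2 (KO2) and 2 (KO3), and a footprint call without an RNA call for 1, 1 and 0. In KO1, 15 of 23 members changed in footprints, 8 higher and 7 lower, against 26.9% of all genes, 11.7% higher and 15.2% lower. In KO2, 12 of 23 changed, 5 higher and 7 lower, against 11.7%, 6.74% and 4.96%. In KO3, 19 of 24 changed, 14 higher and 5 lower, against 30.6%, 14.9% and 15.7%. With DESeq2 the KO2 count was 6, and without WT replicate 1 it was 7. All members called in both assays had the same sign in both: 14 (KO1), 11 (KO2) and 19 (KO3). The median absolute difference between a member's footprint change and its RNA change was 0.19, 0.05 and 0.14, beside median absolute RNA changes of 0.72, 0.26 and 0.56 of the same genes. No member rose or fell in footprints in all 3 clones (0.198% and 0.613% of all genes did), and 7 were called in all 3 with directions that were not the same (2.27% of all genes): Lamb1, Lamb2, Mmp10, Sparc, Spp1, Thbs1 and Timp3.

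**Figure D4:**
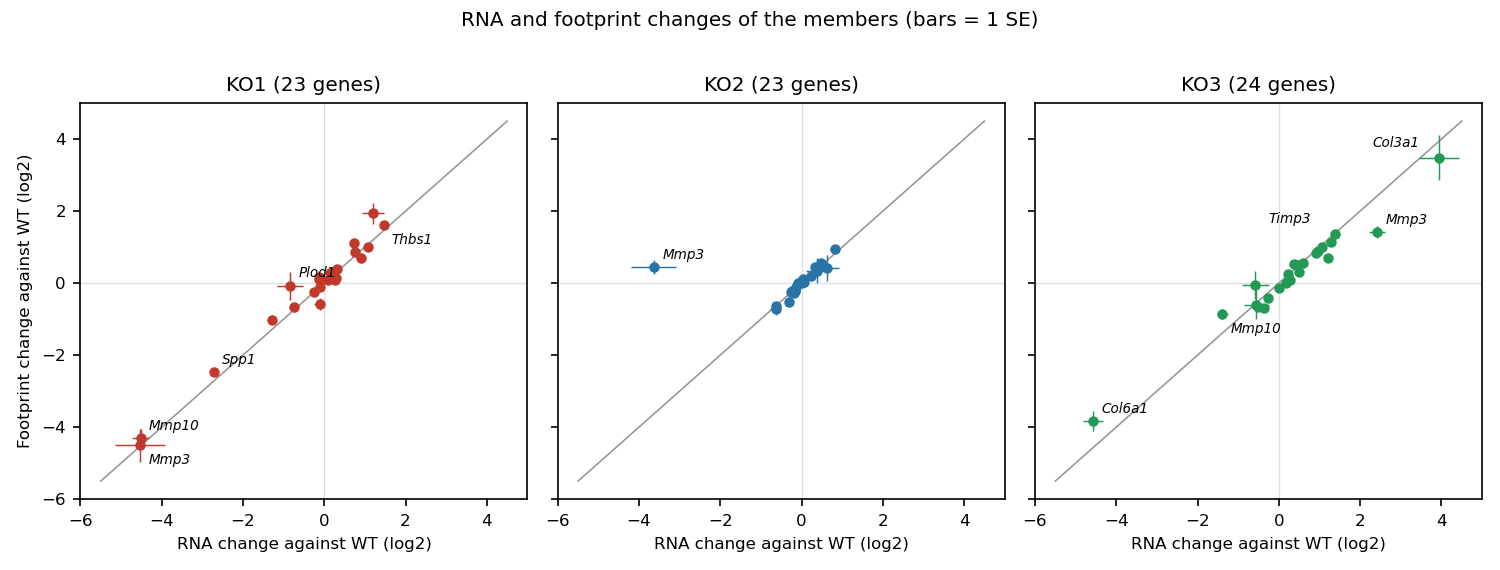
Footprint change (log2, y axis) against RNA change (log2, x axis) of the members tested in both assays, by clone, with bars of 1 SE and a diagonal of equal change. Most members lie near the diagonal. Mmp3 lies far above it in KO2 (RNA -3.64, footprints 0.44) and below it in KO3 (RNA 2.41, footprints 1.42). Tgfbi and Plod1 in KO1 and Col6a1 in KO3 also lie above it.

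TE, tested as the interaction of line and assay, was called for 1 member in each clone, each time a different one. The share of all genes called was 0.0942% for KO1, 0.0173% for KO2 and 0.104% for KO3. The member called in KO1 was Hspg2. Its log2 TE was -0.55 and -0.42 in WT, -0.08 and -0.09 in KO1, -0.46 and -0.63 in KO2, while KO3 had -0.64 and -0.69. Only KO1 lay above WT, and both KO3 libraries lay below it. The change in KO1 was 0.41 (SE 0.08, adjusted p = 0.0370), as footprints rose by 1.12 (SE 0.07) and RNA by 0.72. The call was lost without any 1 of the 4 lysates (adjusted p = 0.0729 to 0.747), with 10 counts required in every library (0.0766) and with TMM over both assays (0.0746). In KO3 the call was Lama5. Its log2 TE was -0.71 and -0.65 in WT, -0.82 and -0.75 in KO1, -0.57 and -0.76 in KO2, while KO3 had -1.17 and -1.16. KO3 was the lowest line. The change was -0.49 (SE 0.08, adjusted p = 0.0014), since Lama5 footprints rose by 0.70 (SE 0.07) where its RNA rose by 1.20, and the call was lost without WT replicate 1 (0.0616) or WT replicate 2 (0.118).

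In KO2 the TE call was Mmp3, with a change of 4.06 (SE 0.54, adjusted p = 1.87e-04) that rests on 5 and 1 RNA counts. Its log2 TE was 5.48 and 8.07 in KO2 and 2.37 and 1.96 in WT. The call was lost without KO2 replicate 2 (3.22, adjusted p = 0.0597), and Mmp3 did not pass a filter of 10 counts in every library. As Mmp3 and Mmp10 are similar, their coding sequences (GRCm38) were compared: of the 1410 windows of 28 bases in Mmp3, 214 (15.2%) occur letter for letter in Mmp10, and 26% with up to 2 mismatches. Mmp3 footprints were 18.2 and 21.5% of the Mmp10 footprints in KO2 and 28.8 and 26.2% in WT. In RNA they were 0.684 and 0.152% in KO2 and 8.60 and 11.5% in WT. In KO3, by contrast, Mmp3 exceeded Mmp10, with 166 and 116% in RNA and 150 and 120% in footprints. The part of shared sequence in the Mmp3 footprints of KO2 was not tested. Acta2, a fibroblast or stellate marker that is not a member, had 242 to 292 footprint CPM with 0.170 to 0.819 RNA CPM in all lines. Its sequence was not compared, and what sets its footprints apart from its RNA was not tested.

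**Figure D5:**
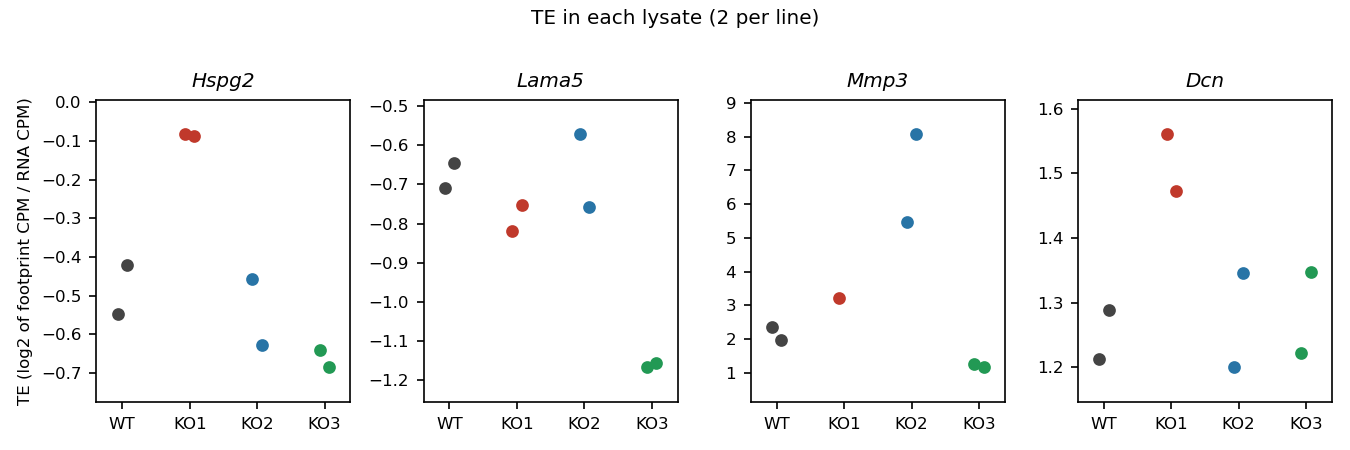
TE of 4 members in each lysate (log2 of footprint CPM over RNA CPM, y axes that do not start at 0), 2 lysates a line; KO1 replicate 2 of Mmp3 has 0 footprints and is not drawn. Hspg2 is highest in KO1, Lama5 lowest in KO3, Mmp3 highest in KO2 and Dcn highest in KO1.

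When both assays of a lysate were kept together as a block, Dcn was also called in KO1 TE. Its log2 TE was 1.56 and 1.47 in KO1, above the 1.21 and 1.29 of WT, the 1.20 and 1.35 of KO2 and the 1.22 and 1.35 of KO3. The change was 0.27 with that block (adjusted p = 0.00488) and 0.26 without it (SE 0.07, adjusted p = 0.275). The members called in KO1 TE thus numbered 2 with the block and 1 without. The members' median TE change was 0.09 (KO1), 0.02 (KO2) and -0.07 (KO3), against 0.02, 0.00 and -0.01 over all genes. Spp1, whose RNA changed most in KO1 among the abundant members, changed in TE by 0.25 (SE 0.10, adjusted p = 0.568), and Thbs1 by 0.17 (SE 0.09, adjusted p = 0.723).

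Tests over all lines asked what the clones share and where they differ. The mean of the clones differed from WT in RNA for 19 of 33 members, 10 higher and 9 lower, against 18.9% of all genes, 7.18% higher and 11.7% lower. Those higher included Fbn1 (1.45, SE 0.23), Thbs1 (0.60, SE 0.05), Col4a1 (0.52, SE 0.06), Lama5 (0.49, SE 0.04) and Agrn (0.45, SE 0.05), and those lower Mmp3 (-1.92, SE 0.35), Mmp10 (-1.69, SE 0.13), Col6a1 (-1.25, SE 0.14) and Spp1 (-0.67, SE 0.05). A mean can be set by 1 clone, as for Spp1, which was above WT in KO2 and KO3, and for Col6a1, which was above WT in KO1. For TE, the mean of the clones was called for 0 of 32 members and 0% of all genes with edgeR. With DESeq2 it was called for 0 members. At an unadjusted p under 0.05 in edgeR there were 3 of 32 members and 451 of 11903 genes (3.79%). The clones differed from each other in RNA for 32 of 33 members, all but Nid2 (adjusted p = 0.172), against 74% of all genes. In footprints they differed for 23 of 24, all but Plod1 (adjusted p = 0.0836), against 59.5%. In TE they differed for 3 of 32 (Hspg2, Lama5 and Mmp3), against 1.03%. KO1 and KO2, made with the same guides, differed in RNA for 23 of 27 members, 15 higher in KO1 and 8 lower, against 49.9% of all genes, 23.5% higher and 26.4% lower. Mmp10 was 40.7-fold lower in KO1 than in KO2 (-5.35, SE 0.19), Spp1 8.2-fold lower (-3.04, SE 0.08) and Thbs1 4.28-fold higher (2.10, SE 0.07).

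A list of 53 related genes gave the surroundings of the members: 18 matrix receptors, 10 collagen-folding enzymes and chaperones of the endoplasmic reticulum, 15 genes of the TGF-beta pathway and 10 of matrix turnover. Of 48 tested in RNA, KO1 had 11 higher and 26 lower, KO2 9 and 11, and KO3 16 and 20, where 46.7%, 20.4% and 45.4% of all genes changed. The receptors split 4 higher to 9 lower (KO1), 2 to 3 (KO2) and 7 to 6 (KO3), of 17 tested. The TGF-beta pathway split 4 to 8, 3 to 2 and 4 to 7, of 13 tested. Collagen-folding genes split 1 to 4, 3 to 2 and 3 to 3, of 9 tested, and turnover genes 2 to 5, 1 to 4 and 2 to 4, of 9. In TE 0 of them were called in any clone. All 3 clones were called for 13 of the 48 in RNA, against 7.92% of all genes. Of these, Colgalt1, a collagen galactosyltransferase, rose in all (0.28, 0.49 and 0.38). Ltbp3, a binder of latent TGF-beta, rose in KO1 and KO2 (0.49 and 0.22) and fell in KO3 (-0.42). Of these 13, the mean decrease was largest for the cathepsin Ctsl (-1.99, -0.15 and -0.62), which fell in all 3 clones.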

How the data were processed

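RNA-seq and Ribo-seq were measured in WT Hepa1-6 cells and 3 Eef1d exon 5 KO clones, with 2 replicates per line and assay. The authors trimmed reads, aligned them to mm10 with GENCODE vM23 annotation and deposited raw counts per transcript, placed by ribosomal A site on the coding sequence without the first and last 5 codons; fastp 0.21.0 and STAR 2.7.0a are named in the submitters' processing notes. The labels give polyA RNA and the methods rRNA depletion for RNA-seq. Of the deposited counts, 1 transcript per gene, that with the largest sum, was used. Depth was 10493030 to 12946819 counts per RNA-seq and 1138943 to 4886753 per Ribo-seq library, and intervals and limits cover counting error only.

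Genes were filtered with filterByExpr, scaled with TMM within each assay and tested with edgeR 4.0.16 (quasi-likelihood, R 4.3.3), with Benjamini-Hochberg adjustment over all genes and a threshold of 0.05. Each clone was compared with WT in RNA, footprints and TE (the interaction of line and assay), and all lines were fitted together for the mean of the clones and for differences between clones. DESeq2 1.42.0, other filters and scalings, blocks, thinning and leaving out each replicate were alternatives. The scripts were tested on simulated data. RNA-seq and Ribo-seq came from the same lysate, and deviations of same-numbered libraries from their line's mean correlated at 0.237 in WT, 0.283 in KO1, 0.119 in KO2 and 0.111 in KO3 over 4014 genes. Values per library are given for members called in RNA in at least 2 clones, and folds and counts for other kept members. The members and lists were chosen with earlier results of these data known. Promoter sequences are from RefSeq (GRCm38.p6), and 29 of the 42 members matched an entry. Nothing says whether the replicates were separate cultures beyond the methods calling them biological. The values of 1 gene of the related list are not reported here.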

Additional observations from a re-analysis of the deposited data

Results flagged for a closer look

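The 3 clones, each set against the same WT libraries, differed from each other in 58 results by edgeR's quasi-likelihood test of that difference (Benjamini-Hochberg adjusted p over all genes tested): 32 members in RNA, 23 in footprints and 3 in TE. Over all genes 74%, 59.5% and 1.03% differed. The values are adjusted p-values. With 2 libraries a line, no line was searched for single libraries that stand apart, and what sets the clones apart was not tested.

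For the fibrillar collagens, type VI collagen and fibrillins, the clones differed in RNA of Col1a1 (0.00205), Col3a1 (1.10e-10), Col6a1 (1.89e-21), Fbn1 (0.0442) and Fbn2 (1.43e-06). For the basement membrane genes, the clones differed in RNA of Agrn (5.15e-14), Col18a1 (2.76e-17), Col4a1 (3.02e-19), Col4a2 (3.09e-15), Hspg2 (2.90e-16), Lama1 (8.16e-06), Lama5 (2.44e-21), Lamb1 (3.50e-17), Lamb2 (7.32e-13), Lamc1 (1.38e-12) and Nid1 (4.22e-11). For the matricellular genes, the clones differed in RNA of Sparc (1.98e-18), Spp1 (5.54e-30), Tgfbi (8.65e-06), Thbs1 (4.01e-26) and Tnc (1.86e-04). For the small and large proteoglycans, the clones differed in RNA of Bgn (2.49e-04), Dcn (1.55e-09) and Vcan (0.0249). For the proteases and inhibitors, the clones differed in RNA of Mmp10 (5.45e-23), Mmp14 (5.73e-06), Mmp3 (7.70e-20), Timp1 (1.62e-07), Timp2 (1.33e-06) and Timp3 (1.10e-17). For the collagen-processing enzymes, the clones differed in RNA of Loxl2 (0.00561) and Plod1 (7.98e-04).

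For the fibrillar collagens, type VI collagen and fibrillins, the clones differed in footprints of Col3a1 (2.28e-07) and Col6a1 (7.47e-19). For the basement membrane genes, the clones differed in footprints of Agrn (4.22e-13), Col18a1 (2.06e-14), Col4a1 (1.49e-13), Col4a2 (4.01e-10), Hspg2 (1.23e-21), Lama5 (3.50e-11), Lamb1 (4.19e-15), Lamb2 (1.19e-14), Lamc1 (2.01e-07) and Nid1 (1.48e-12). For the matricellular genes, the clones differed in footprints of Sparc (3.43e-16), Spp1 (8.45e-31), Tgfbi (3.67e-08) and Thbs1 (1.30e-27). For the small and large proteoglycans, the clones differed in footprints of Dcn (5.10e-09). For the proteases and inhibitors, the clones differed in footprints of Mmp10 (1.44e-23), Mmp14 (1.11e-04), Mmp3 (1.32e-17), Timp1 (3.15e-07), Timp2 (1.27e-06) and Timp3 (5.22e-20).

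In TE the clones differed for Hspg2 (3.85e-05), Lama5 (9.11e-04) and Mmp3 (2.17e-10).

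Some of these differences in RNA were lost under other settings. Fbn1 was lost with DESeq2's likelihood ratio test (adjusted p = 0.155) and without KO1 replicate 1 (0.208), KO1 replicate 2 (0.0614) or KO3 replicate 2 (0.241). Vcan was lost with DESeq2 (0.0956) and without KO2 replicate 1 (0.218), KO3 replicate 1 (0.0821) or KO3 replicate 2 (0.0750), and Loxl2 without KO2 replicate 1 (0.128). In footprints, Mmp14 was lost after thinning to the smallest library (0.200). Col3a1 and Lama1 were kept only through KO3 and KO1, and such genes had to differ between clones to be kept. In TE, Mmp3 was not among the 2 members called with DESeq2.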

How the results depend on the processing

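Of 199 recomputed counts of members called, 185 stayed within 1.5 times the reported count and 14 moved further. Of 133 calls of single members, 102 held at every alternative that tested them, and none changed direction. The count of members called in KO2 footprints, 12, was 6 with DESeq2's likelihood ratio test and 7 without WT replicate 1. The 1 TE call in KO1 became 0 with at least 10 counts in every library, 0 with TMM over both assays, 2 with the replicate block and 2 with the replicate block by lysate. The 1 TE call in KO2, Mmp3, became 0 with at least 10 counts in every library, a filter that Mmp3 did not pass. The cause of the other changes was not tested. Leaving out each replicate in turn gave 20 to 23 members in KO1, 12 to 16 in KO2 and 21 to 23 in KO3 RNA, 11 to 14, 7 to 11 and 19 to 19 in footprints, and 0 to 0, 0 to 1 and 0 to 1 in TE. It gave 15 to 19 for the RNA mean of the clones, 0 for its TE, 31 to 33, 23 and 3 for differences between clones in RNA, footprints and TE, and 21 to 24 for KO1 against KO2. The TE calls were lost without any 1 lysate in KO1, without KO2 replicate 2 in KO2, and without WT replicate 1 or 2 in KO3.

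Between lines, same-numbered libraries correlated in their deviations at -0.00 to 0.37 in RNA and 0.0969 to 0.200 in footprints over 4014 genes. Of 6 pairs of lines, 4 were over 0.1 in RNA and 4 in footprints, and the labels name nothing that same-numbered libraries of different lines share, so the number was not used as a pairing. With the replicate block, the members called were 25, 17 and 23 in RNA, 15, 13 and 19 in footprints and 2, 1 and 1 in TE of KO1, KO2 and KO3. They were 19 and 0 for the mean of the clones in RNA and TE, 32, 23 and 3 for differences between clones, and 23 for KO1 against KO2. Blocked by lysate, 4 members differed between clones in TE against 3 without it, Dcn being added (adjusted p = 0.00503). The block added RNA calls of Col4a1 (-0.12, adjusted p = 0.0413) and Lamc1 (0.0498) in KO1 and of Lamc1 (0.0319) and Mmp14 (0.0429) in KO2. With all Ribo-seq libraries thinned to the smallest, 13, 8 and 18 members were called in footprints of KO1, KO2 and KO3, against 15, 12 and 19.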
